A study of Arabidopsis thaliana with 18 samples.

Results

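The reads that lie inside introns of chromatin-bound RNA were compared between xrn3 and Col-0 seedlings of Arabidopsis. The comparison covers 77589 introns of 13486 genes, out of 121209 introns of 22121 loci that the deposited tables list. An intron was taken where it had the same locus, start and end in both tables and at least 20 exonic reads at its 5′ and at its 3′ splice site in each. At any depth, 94736 introns were counted at both splice sites in both tables. The xrn3 plants carried the xrn3-3 allele, a T-DNA insertion that the study describes as rather weak, and the reference was the Col-0 wild type. All seedlings were 14 days old, and those compared here were untreated. Background also came from Col-0 seedlings immersed in buffer with the solvent DMSO (total RNA-seq) and from untreated xrn3 and Col-0 seedlings (pNET-seq). For the comparison, each genotype was sequenced as 2 libraries. Each deposited table pools its 2 libraries, so no value has a spread between replicates. All p-values compare the pooled libraries and not the genotypes, and all intervals cover counting error only.

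XRN3 is a nuclear 5′ to 3′ exonuclease. It degrades the RNA that Pol II goes on making after the transcript has been cleaved at the poly(A) site, and this helps Pol II to leave the template. The chromatin was washed, and polyadenylated and ribosomal RNA were removed, steps that enrich young RNA. How much mature RNA remained is not known here. A read inside an intron then marks a transcript not yet spliced there, while a read that stays in the exon or crosses the junction counts as exonic. The intronic share used here is the intronic reads over the intronic plus exonic reads beside both splice sites. A read that reaches both sites may be counted at each, so p-values and intervals can understate even the counting error. The lower the share is, the more of the RNA on chromatin was spliced at that intron. Unspliced RNA gives exonic reads too, so an unspliced intron holds about equal reads of both kinds and not intronic reads alone.

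A few introns that differed between the genotypes show what is being counted. Their splice sites in TAIR10 are printed 5′ to 3′ from RefSeq's copy of that genome, with the first 6 and the last 3 bases of the intron in capitals and 6 exonic bases on the outer side. They are intron 4 of XRN3 (chr1:28409358-28409460, plus strand), which differed most within that gene, the 3 introns with the largest rises, in CCT (intron 5, chr4:203605-203723, plus), LAF3 (intron 6, chr3:20724278-20724352, minus) and EMB269 (intron 3, chr5:6172407-6172492, minus), and the 3 with the largest falls, in AT3G07700 (intron 12, chr3:2460573-2460653, minus), AT3G52990 (intron 2, chr3:19649343-19649434, plus) and RAB8 (intron 3, chr3:19877603-19877690, minus).
XRN3 intron 4, 5′ splice site: atcaagGTATTTgtga
XRN3 intron 4, 3′ splice site: gttgaactgcaAAGgtcatc
CCT intron 5, 5′ splice site: cgcaagGTAATCaaga
CCT intron 5, 3′ splice site: caattaactggCAGgctggt
LAF3 intron 6, 5′ splice site: aatcctGTAAGAaatc
LAF3 intron 6, 3′ splice site: ttctcttcgtgTAGgtttgg
EMB269 intron 3, 5′ splice site: ccaaagGTGTGGttta
EMB269 intron 3, 3′ splice site: caaatttgctaTAGcattgt
AT3G07700 intron 12, 5′ splice site: ttgaggGTGCCTattc
AT3G07700 intron 12, 3′ splice site: ttttgattttgCAGgtattg
AT3G52990 intron 2, 5′ splice site: tgtctgGTACTAacga
AT3G52990 intron 2, 3′ splice site: gttctgtcattTAGtggctc
RAB8 intron 3, 5′ splice site: tattggGTATGAtgtc
RAB8 intron 3, 3′ splice site: tttgtttttgaCAGgattga

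The gene that carries the mutation was examined first. XRN3 (AT1G75660, chr1:28408147-28415117, plus strand) had 6925 exonic and 1851 intronic reads in xrn3, against 8055 exonic and 1532 intronic reads in Col-0, summed over 22 introns. These counts neither show the mutation nor go against the label, since where the insertion lies in the gene is not given in the sources used here, so xrn3 here stands for the libraries labelled xrn3. Over all introns compared, xrn3 had 28621873 exonic and 5312231 intronic reads, against 27079708 and 6879103 in Col-0. The median intron had 199 exonic and 40 intronic reads in xrn3, against 192 and 49 in Col-0. As a check of the tissue, 10 of 10 green leaf markers, 1 of 6 root markers and 0 of 5 flower markers were among the genes compared, and without the minimum of 20 exonic reads reads were counted at 3 root markers and at no flower marker.

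In xrn3 the RNA on chromatin held fewer intronic reads. The intronic share of all reads was 15.7% in xrn3 (95% Wilson interval 15.6 to 15.7%) and 20.3% in Col-0 (20.2 to 20.3%). Exonic reads were 5.69% more numerous in xrn3 than in Col-0, while intronic reads decreased by 22.8%. The median intron had an intronic share of 15.8% in xrn3 and 20% in Col-0. Per intron, the log2 change of the share (xrn3 over Col-0) had a median of -0.29 and quartiles of -0.64 and 0.01, and 74.4% of introns were lower in xrn3. Per gene, with the reads of its introns summed, the median was -0.30 with quartiles of -0.51 and -0.12, and 86.3% of genes were lower. The shift was of the same size at both ends of the intron, with medians of -0.28 at the 5′ splice site and -0.28 at the 3′ splice site. Both sites were lower in 60.0% of introns and both higher in 16.0%. Introns whose smallest exonic count was 20 to 24 had a median of -0.21, and those just left out, at 15 to 19, had -0.19. No test across replicates could be made of this difference, and whether it exceeds the spread between libraries of one genotype is not known here.

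The lower share was spread along the gene and did not belong to one place in it. The median log2 change was -0.27 over 9834 first introns, -0.30 over 56770 internal introns, -0.27 over 9441 last introns and -0.28 over the lone introns of 1544 genes with a single intron. The levels themselves differed more between positions than the change did. Last introns had a median share of 20.1% in xrn3 and 25.2% in Col-0, against 15.02% in xrn3 and 18.9% in Col-0 for first introns. In 8112 genes both the first and the last intron were measured, and their median changes were -0.28 and -0.29. Both were lower in xrn3 in 58.5% of these genes, and the median of first minus last was 0.02. Grouped by the number of introns in the gene, the median change lay between -0.28 in genes with 1 intron and -0.30 in genes with 20 or more. Introns that end close to the gene's end stood somewhat apart. Among the 735 introns whose 3′ splice site lies under 250 bp from the gene end the median was -0.15, with a share of 28.0% in xrn3 and 32.9% in Col-0, and the 4 classes farther away had medians from -0.28 to -0.31.

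Intron length made as little difference. The median log2 change was -0.26 for 8563 introns under 80 bp, -0.31 for the 29551 introns from 80 to under 100 bp, which is the most common class, -0.28 up to 150 bp, -0.28 up to 300 bp, -0.29 up to 500 bp and -0.27 for the 2901 introns of at least 500 bp. Within internal introns alone these medians lay between -0.26 and -0.32. Long introns had the highest shares in both genotypes, at 20% in xrn3 and 25.4% in Col-0 for those of at least 500 bp. What changed with length was the spread. Of the longest introns 79.9% were lower in xrn3, against 71.9% of the shortest, and the upper quartile was -0.05 in the longest and 0.04 in the shortest. Of the introns under 80 bp 2.53% were called higher, against 0.655% of those of at least 500 bp, under the rule for calls given next. A read can reach both splice sites, and be counted at each, more easily at a short intron. What this adds to the difference in calls was not tested.

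**Figure D1:**
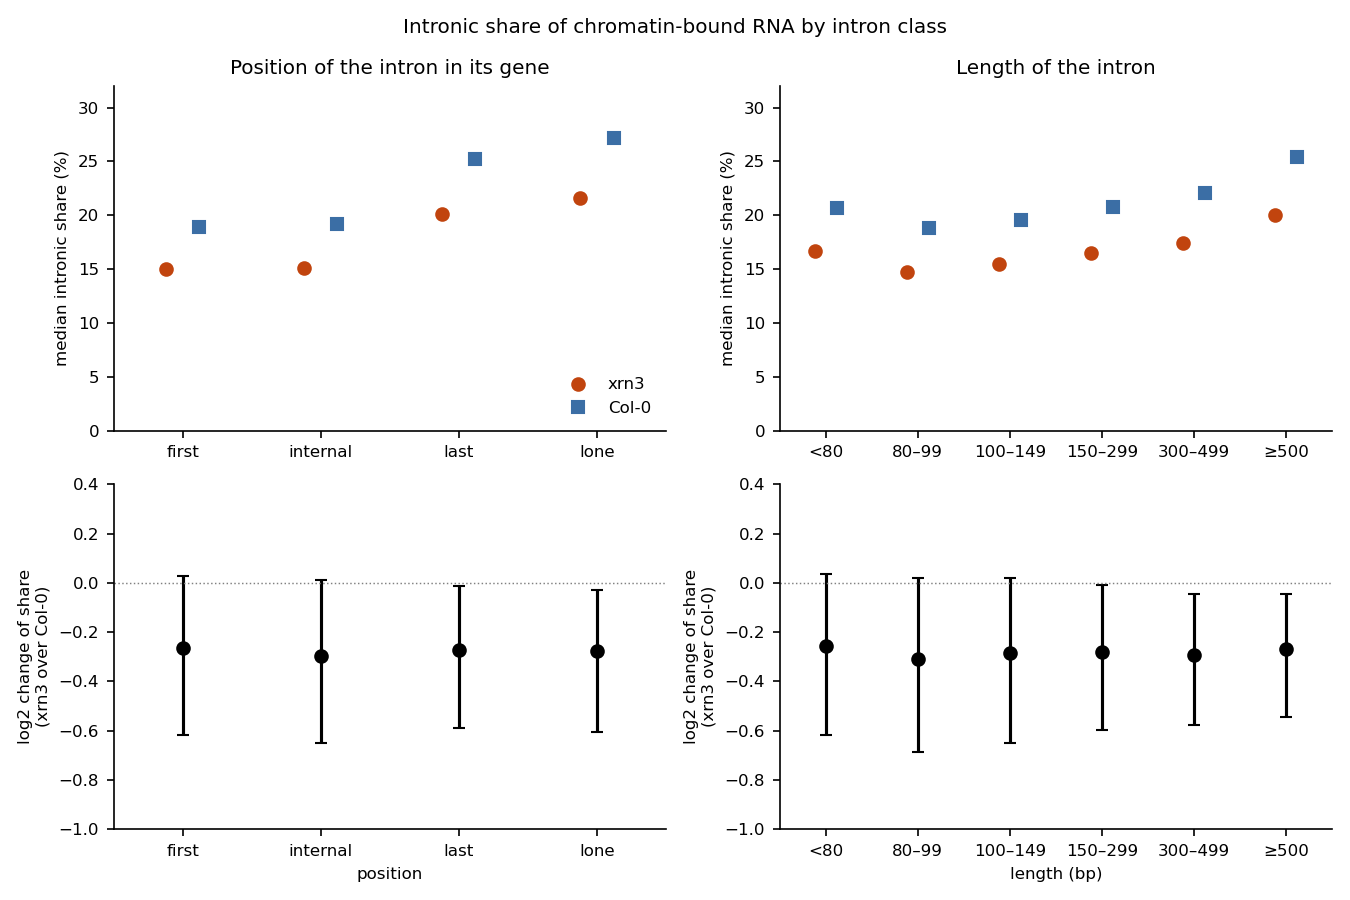
Top, median intronic share in percent in xrn3 (circles) and Col-0 (squares) for introns grouped by position in the gene (left) and by length in bp (right). Bottom, the log2 change of the share (xrn3 over Col-0) in the same groups, as median and quartiles over introns. Col-0 lies above xrn3 in every group, and the medians of the change lie between -0.26 and -0.31.

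An intron was called when Fisher's exact test on its intronic and exonic reads gave an adjusted p under 0.05 (Benjamini-Hochberg over all introns) and the share changed at least 1.5-fold. By this rule 14090 introns (18.2%) fell and 1518 (1.96%) rose in xrn3. Measured against the median change in place of no change, 3904 introns fell and 3090 rose. The introns that rose had a median share of 18.6% in xrn3 and 6.54% in Col-0, a gap that the rule itself sets in part. They lay in 1297 genes, and 93 of these genes were called higher as a whole, against 116 of all 13486 genes. Both calls use the same reads, so this overlap is set in part by the rule.

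The largest rises among introns with at least 50 exonic reads at each site were at introns with no intronic read in Col-0. In CCT, which encodes a subunit of the Mediator complex, intron 5 had 33 intronic and 304 exonic reads in xrn3, against 0 and 302 in Col-0, where a count of 0 allows a share of up to 0.993%, taking 3 reads of the pooled total as the limit. The bounds on folds given next, for rises and falls, set the observed share against this limit. The reads lay at both ends, 17 at the 5′ and 16 at the 3′ splice site, though a read across this intron may count at both. This is an at least 9.86-fold higher share, but the gene without this intron had a log2 change of -0.31, close to the median of all genes. LAF3, a gene named for its role in far-red light signalling, had 36 intronic reads of 160 in xrn3 and 0 of 105 in Col-0 at intron 6, at least 7.88-fold higher. The other 3 were EMB269, a GTPase of the OBG family (intron 3, at least 6.33-fold), AT4G27390 (intron 1, at least 6.26-fold) and NRPC2, a subunit of RNA polymerase III (intron 14, at least 5.72-fold). Without the named intron, LAF3 had a log2 change of -0.16, EMB269 of -0.74, AT4G27390 of 0.22 and NRPC2 of -0.47. In 4 of these 5 genes the remaining introns together were lower in xrn3, as were 86.3% of all genes.

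The largest falls were at introns with no intronic read in xrn3. Intron 12 of AT3G07700, a protein kinase family gene, had 0 intronic and 272 exonic reads in xrn3, against 58 and 239 in Col-0, which is at least 17.7-fold lower. Intron 2 of AT3G52990, a pyruvate kinase, had 0 intronic and 323 exonic reads in xrn3, against 31 and 181 in Col-0, at least 15.7-fold lower. Intron 3 of RAB8, a small GTPase of vesicle transport, had 0 intronic and 550 exonic reads in xrn3, against 35 and 443 in Col-0, at least 13.4-fold lower. Intron 4 of AT5G64500 and intron 1 of STRS2, a DEAD-box RNA helicase, were at least 13.5-fold and 11.5-fold lower. Here the rest of the gene moved the same way, as did most genes, of which 86.3% were lower with a median of -0.30. Without the named intron the log2 changes of the 5 genes were -0.65, -0.85, -1.04, -0.34 and -0.83.

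The splice site letters were examined across all introns, a split chosen after seeing the data. GT and AG stood at the ends of 98.8% of the introns, with a median change of -0.29. The 786 introns with GC and AG had -0.23 and the 49 with AT and AC had -0.21. Introns that start with GTAAGT, 9.28% of all, had -0.29, and those that start with GTATGT, 4.77% of all, had -0.31. The 85 introns with other letters had a median of -0.01 and nearly equal intronic and exonic reads, with a share of 49.2% in xrn3 and 48.8% in Col-0. Unspliced RNA would give such a share, and why it did not move was not tested.

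Of the 13486 genes, 2263 (16.8%) fell and 116 (0.860%) rose in intronic share by the same rule, applied to reads summed over the introns of a gene, so 2379 (17.6%) were called in all. Measured against the median change, 522 genes fell and 300 rose. The genes called lower had a median share of 11.6% in xrn3 and 21.1% in Col-0, with a median of 112 intronic reads in xrn3 and 184 in Col-0. The genes called higher, which went against the general fall, had a median share of 20.5% in xrn3 and 8.80% in Col-0, again a gap set in part by the rule. They rested on few reads, with a median of 41.5 intronic and 138 exonic reads in xrn3 and 17 intronic and 147 exonic reads in Col-0. Within genes of 10 or more measured introns a median of 75% of the introns were lower, all were lower in 147 of 2394 genes and all were higher in none. Of the 116 genes called higher, 57 had a single measured intron, against 2535 of all 13486 genes. The other 59 had 2 or more, and in 42 of these every measured intron was higher. The call was made from the sum of the same introns, so this agreement is set in part by the rule. When the intron that adds most to the change was left out, an alternative chosen after seeing the data, 24 of the 59 were still at least 1.5-fold higher and 54 still higher at all.

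**Figure D2:**
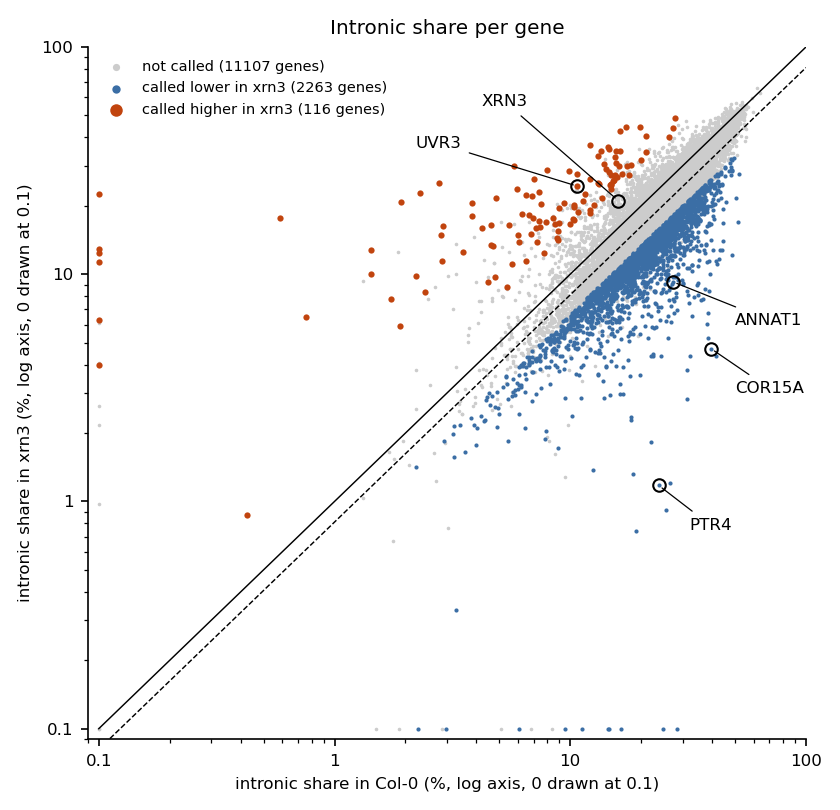
Intronic share of each of 13486 genes in xrn3 (vertical) against Col-0 (horizontal), in percent on log axes. The solid line marks equal shares and the dashed line the median change. The 2263 genes called lower (blue) form one edge of the cloud, and the 116 called higher (red) lie above the line of equal shares.

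Among genes called higher with at least 200 exonic reads in both tables, UVR3 had the most reads behind its rise. UVR3 (AT3G15620, chr3:5293306-5296592, minus strand) encodes a photolyase, which repairs DNA damaged by ultraviolet light. It had 323 intronic and 1000 exonic reads in xrn3, against 121 and 1009 in Col-0. Its share was 24.4% in xrn3 (95% Wilson interval 22.2 to 26.8%) and 10.7% in Col-0 (9.04 to 12.6%), a log2 change of 1.19 (Fisher's exact test, adjusted p = 8.8e-18). All 8 measured introns were higher in xrn3. Of the 5 introns under the minimum of reads, introns 7 and 11 were lower, at 8.33% and 21.1% in xrn3, against 26% and 30.5% in Col-0. At its first intron, 34 intronic and 183 exonic reads were counted in xrn3, against 4 and 313 in Col-0. At intron 6 the counts were 94 and 93 in xrn3, against 22 and 52 in Col-0. In separate libraries of nascent RNA held by Pol II (Ser2P pNET-seq), its gene body reads were also higher, at 2670 in xrn3 after scaling by the median ratio over genes and 1035 in Col-0. This was not shared by the genes called higher. Of the 107 of them listed in pNET-seq, 57 were higher there, with a median log2 change of 0.04. The next gene upstream on the same strand ends 29 bp before UVR3 starts.

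The other 9 genes with the largest rises had fewer reads. CLPB4, a mitochondrial chaperone of the ClpB family, had 74 intronic reads of 358 in xrn3 and 34 of 361 in Col-0, and all 5 measured introns were higher (log2 change 1.12, adjusted p = 9.2e-05 by Fisher's exact test). ATRER1C1, of the Rer1 family of Golgi proteins, had 61 of 406 in xrn3 and 25 of 367 in Col-0. Its first intron was level, at 9.66% in xrn3 and 9.62% in Col-0, and the rise lay in intron 2, at 19.1% in xrn3 and 4.74% in Col-0. AT2G20330, a WD40 repeat protein, had 77 of 520 in xrn3 and 22 of 368 in Col-0. AT5G17160 had 79 of 492 in xrn3 and 27 of 362 in Col-0. RLP19, a receptor like protein with a single intron, had 49 of 285 in xrn3 and 21 of 284 in Col-0. AT2G16930, a ribosomal protein L27 family gene, had 45 of 325 in xrn3 and 19 of 313 in Col-0. These 6 genes had log2 changes between 1.09 and 1.29. AT3G58470, AT5G13400 and AT1G26090 depended on which introns were counted. With a minimum of 10 exonic reads, which admits more introns, their changes were 0.28, -0.40 and 0.14, against 1.47, 1.55 and 1.07 at a minimum of 20. Among the 10 genes, UVR3 and AT2G20330 kept their call at the 5′ site alone and at the 3′ site alone.

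The 10 largest falls among genes with that depth rested on 0 to 26 intronic reads per gene in xrn3. PTR4, a peptide transporter, had 4 intronic and 336 exonic reads in xrn3, against 75 and 241 in Col-0, and its 3 measured introns were all lower. Intron 4, under the minimum of reads, had 58 intronic and 55 exonic reads in xrn3 and 64 and 66 in Col-0 and so was level. GAMMA-TIP, an aquaporin of the vacuole membrane, had 4 intronic and 288 exonic reads in xrn3, against 36 and 251 in Col-0. RAB18, a dehydrin induced by abscisic acid, had 20 intronic and 306 exonic reads in xrn3, against 94 and 258 in Col-0, and GSTU20, a glutathione S-transferase, had 26 and 1354 in xrn3, against 77 and 908 in Col-0. AT2G23940 showed it in 4 of 4 introns, with 26 intronic and 643 exonic reads in xrn3, against 130 and 645 in Col-0. AT1G48100, of the pectin lyase family, had 19 and 262 in xrn3, against 87 and 229 in Col-0. AT2G19910, an RNA-dependent RNA polymerase, had 9 and 307 in xrn3, against 53 and 329 in Col-0, with 4 of its 5 measured introns lower. MDH, a malate dehydrogenase, had 5 and 287 in xrn3, against 29 and 298 in Col-0. AT3G05730, a defensin-like gene, had 5 and 1493 in xrn3, against 21 and 620 in Col-0. The last of the 10, AT2G25510, had 0 intronic reads of 305 in xrn3 and 7 of 311 in Col-0, at least 2.29-fold lower. AT3G05730 and GSTU20 also had more exonic reads, 2.31-fold and 1.43-fold after scaling, and in the other 8 this fold lay between 0.898 and 1.34. The fall of PTR4, -4.17 on the log2 scale, was -1.18 with a minimum of 10 exonic reads and -1.09 at the 5′ site alone, and that of AT2G19910, -2.22, was -1.35 with a minimum of 10. With 5 in place of 0.5 added to the intronic count, PTR4 had -3.25, AT2G25510 -1.24 (against -3.88), AT3G05730 -2.59 (against -3.19), GAMMA-TIP -2.21 (against -3.04) and MDH -1.61 (against -2.26). At a single splice site the call of AT2G25510 was lost at either site, with changes of -2.31 (5′) and -3.42 (3′), and that of MDH at the 5′ site, with a change of -2.14.

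XRN3 itself went against the general fall. Its share was 21.1% in xrn3 (95% Wilson interval 20.3 to 22.0%) and 16.0% in Col-0 (15.3 to 16.7%), a log2 change of 0.40 that passed Fisher's exact test (adjusted p = 1.0e-17) but was under 1.5-fold. The rise was shared along the gene, with 20 of 22 introns higher and 7 of them called. Intron 4, whose splice sites are given with the sequences, differed most, with 82 intronic and 432 exonic reads in xrn3, against 9 and 360 in Col-0. Its share was 16.0% in xrn3 (13.04 to 19.37%) and 2.44% in Col-0 (1.29 to 4.57%). Intron 12 had 77 intronic and 456 exonic reads in xrn3, against 26 and 450 in Col-0. Intron 7 was the least spliced in both, with 40.2% in xrn3 and 34.4% in Col-0, and only introns 9 and 17 were lower in xrn3. The exonic reads of XRN3 changed along the gene as well. The log2 change of scaled exonic reads had a median of 0.24 over the first 5 introns and -0.41 over the last 5. It was 0.48 at intron 1, with 128 reads in xrn3 and 88 in Col-0, and -1.22 at intron 22, with 138 in xrn3 and 309 in Col-0. The gene body of XRN3 in pNET-seq held 5036 scaled reads in xrn3 and 302 in Col-0, so the polymerase reads differed far more than the RNA on chromatin did.

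**Figure D3:**
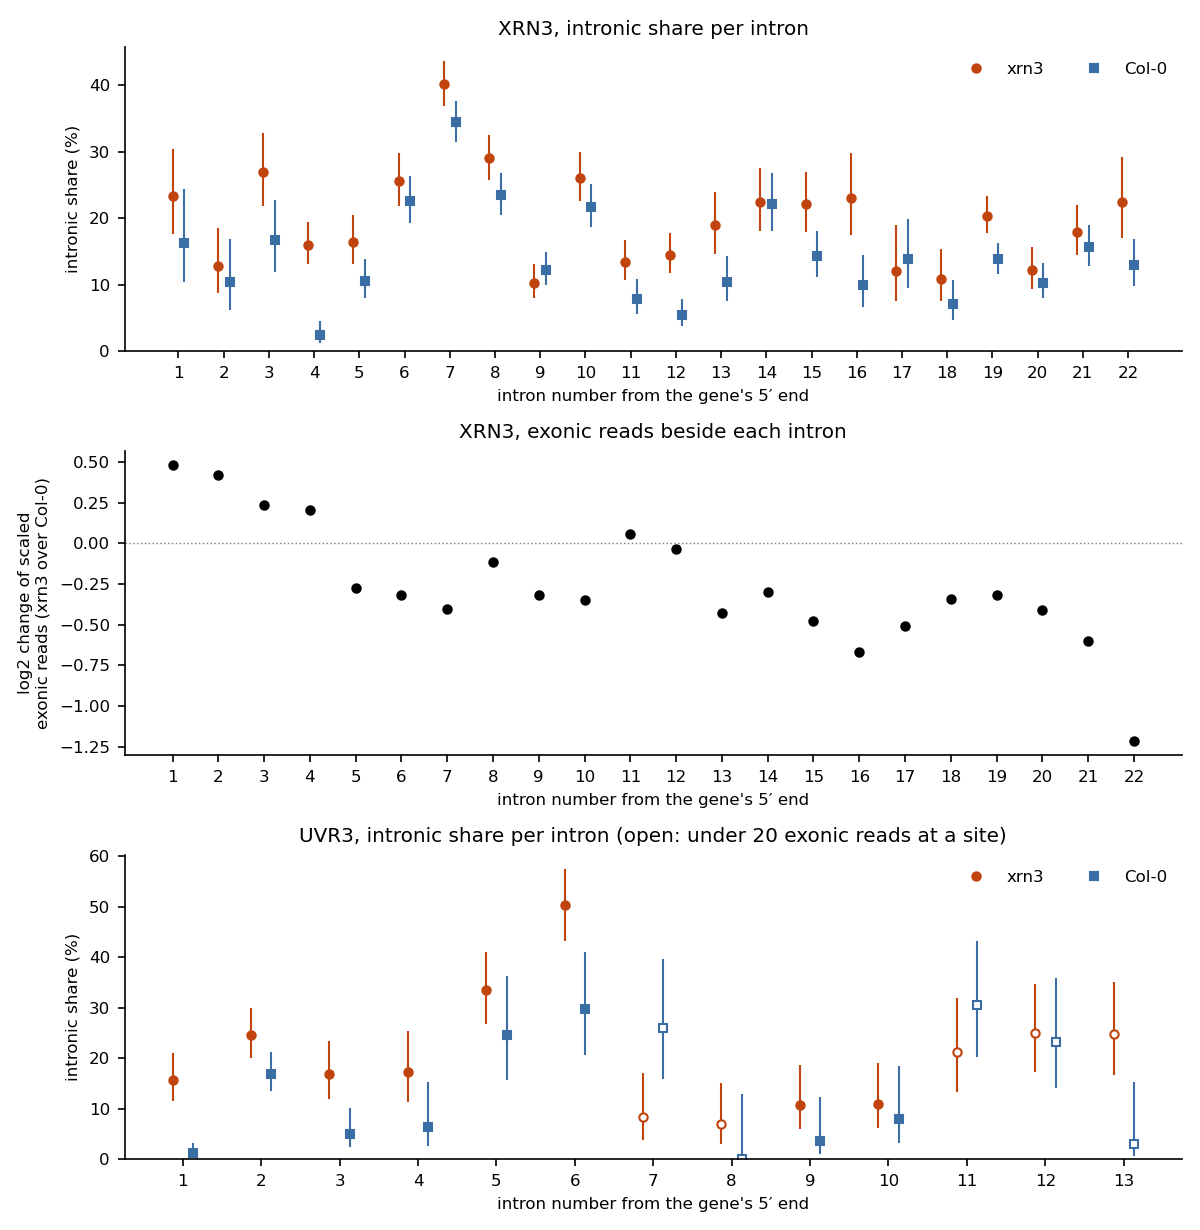
Top, intronic share in percent at each intron of XRN3 in xrn3 (circles) and Col-0 (squares), with 95% Wilson intervals. Middle, log2 change (xrn3 over Col-0) of scaled exonic reads beside each XRN3 intron. Bottom, the shares at the introns of UVR3, with open symbols where an intron had under 20 exonic reads at a site. At XRN3, 20 of 22 introns are higher in xrn3, and exonic reads go to -1.22 at the last intron.

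Genes of RNA decay and RNA processing were read against the rates over all genes, of which 86.3% were lower, 16.8% called lower and 0.860% called higher. All gene lists, here and below, were chosen with earlier results of these data known, so such comparisons are descriptive only. The list of XRN exonucleases and partners holds XRN2, a nuclear paralogue of XRN3, XRN4, its cytoplasmic paralogue, FRY1, the phosphatase that removes an inhibitor of these enzymes, and DXO1, a decapping enzyme. XRN2 had a share of 11.2% in xrn3 and 14.2% in Col-0, XRN4 17.5% in xrn3 and 22.3% in Col-0, and FRY1 15.6% in xrn3 and 21.6% in Col-0. DXO1 had 19.5% in xrn3 and 20.2% in Col-0. None of the 5 list members was called in either direction. Of 12 genes of 3′ end processing, 12 were lower and 0 were called, and their median of -0.21 was near the -0.30 of all genes. FY, whose product is part of the cleavage complex, had 24.8% in xrn3 and 32.1% in Col-0, and PCFS4, a cleavage factor, had 14.4% in xrn3 and 21.3% in Col-0. FPA and FCA, RNA-binding proteins that act in poly(A) site choice, had 19.4% and 19.4% in xrn3, against 20.9% and 22.1% in Col-0. Of 20 genes for SR proteins, which bind exons and help to define splice sites, 17 were lower, 1 was called lower and 0 higher, with a median of -0.27. The called gene was RSZ21, with 10.5% in xrn3 and 16.5% in Col-0. SR45a, RS31a and SR34b were slightly higher in xrn3, at 26.8%, 35.95% and 31.8%, against 25.4%, 33.4% and 30.7% in Col-0. Of 11 circadian clock genes, 10 were lower and 0 called, with a median of -0.39. CCA1, which encodes a morning transcription factor, had 10.5% in xrn3 and 15.7% in Col-0, and the evening gene TOC1 had 22.3% in xrn3 and 24.5% in Col-0. CCA1 also had 639 scaled pNET-seq gene body reads in xrn3 and 191 in Col-0.

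Green leaf markers were lower by more than the median gene. Among 10 green leaf markers 8 were called lower and 0 higher, against 16.8% of all genes called lower, and their median change was -0.70. RCA, the activase of Rubisco, had a share of 5.85% in xrn3 (5149 intronic and 82825 exonic reads) and 9.34% in Col-0 (5221 and 50703). The light-harvesting genes LHCA1, LHCB3 and LHCB5 had 2.99%, 5.23% and 3.30% in xrn3, against 4.51%, 8.50% and 5.38% in Col-0. The Rubisco small subunit gene RBCS1A had 3.31% in xrn3 and 5.95% in Col-0. RBCS2B and RBCS1B were not called, at 5.72% and 23.6% in xrn3, against 5.62% and 20.8% in Col-0. They are near-identical copies and only unique reads were kept, so their values are uncertain, as are those of RBCS3B and of the pair BIP1 and BIP2. Scaled exonic reads were higher in 9 of these 10 genes, with a median log2 change of 0.43. In bulk tissue, more cells of a type and more RNA per cell cannot be told apart. The leaf markers summed to 484560 exonic reads in xrn3 and 347171 in Col-0, and their part in the general fall was not tested.

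Of 9 measured genes of the abscisic acid (ABA) and cold response, 9 were lower and 5 were called lower, against 86.3% and 16.8% of all genes, with a median of -0.72 and a median of 0.37 for exonic reads. This list, too, was chosen with earlier results known and is no independent comparison. COR15A, a chloroplast protein made in the cold, had 8 intronic and 162 exonic reads in xrn3, against 34 and 52 in Col-0, a share of 4.71% in xrn3 (2.40 to 9.01%) and 39.5% in Col-0 (29.9 to 50.1%). KIN2 had 12.7% in xrn3 and 25.4% in Col-0, the dehydrin COR47 18.4% in xrn3 and 35.8% in Col-0, ERD10 16.0% in xrn3 and 30.1% in Col-0, and RD29A 13.5% in xrn3 and 22.3% in Col-0. The phosphatase genes of ABA signalling, ABI1, ABI2 and HAB1, had 25.9%, 23.1% and 21.9% in xrn3, against 30.8%, 33.6% and 25.6% in Col-0, and none of them was called. Of 4 measured heat shock genes 4 were lower and BIP2 alone was called, which is close to the rates over all genes. BIP1 and BIP2, chaperones of the endoplasmic reticulum, had 6.44% and 11.2% in xrn3, against 9.55% and 17.2% in Col-0. All 4 had more scaled exonic reads in xrn3, with a median log2 change of 0.65, and none reached 2-fold.

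**Figure D4:**
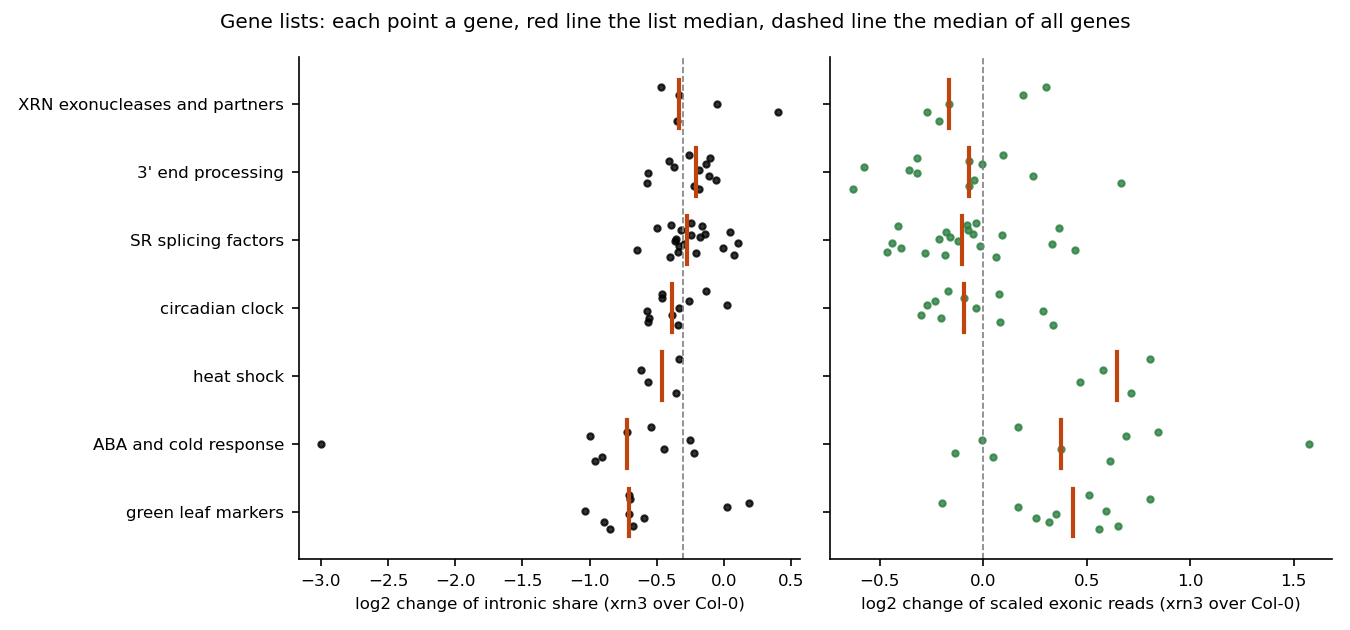
Log2 change (xrn3 over Col-0) of intronic share (left) and of scaled exonic reads (right) for the measured genes of 7 lists. Each point is a gene, the red line is the list's median and the dashed line the median of all genes. The lists were chosen with earlier results of these data known. Green leaf markers and ABA and cold genes lie left of the dashed line for the share, with medians of -0.70 and -0.72, and right of it for exonic reads, with medians of 0.43 and 0.37.

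Exonic reads per gene were compared as a second measure. They were summed over the same introns in both tables and scaled by the median ratio of 1.04, which sets their median change to 0. Their quartiles were -0.20 and 0.20 on the log2 scale, about as far apart as those of the share. The middle 90% of genes lay between -0.53 and 0.53 on the log2 scale and 92.6% were within 1.5-fold. Past 2-fold, 42 genes (0.311%) were higher and 56 (0.415%) lower in xrn3. Exonic reads are part of the total behind the share, so a gain of them by itself lowers it. The genes with more exonic reads had a median share of 12.2% in xrn3 and 21.6% in Col-0. The share was lower in 36 of the 42, near the 86.3% of all genes. Scaled intronic reads were higher in 29 of the 42, against 1986 of all 13486 genes. The genes with fewer exonic reads had a median share of 28.8% in xrn3 and 31.0% in Col-0, and it was lower in 33 of the 56. Their scaled intronic reads were lower too, past 2-fold in 40 of the 56, against 1038 of all 13486 genes. Of these 56 genes 35.7% had a share of at least 40% in Col-0, against 6.52% of all genes. Polymerase on these genes did not differ in the same way. In pNET-seq the median log2 change of gene body reads was 0.01 over the 30 of the 42 genes that were listed there and 0.01 over 42 of the 56, against -0.02 over 12685 genes. Over those 12685 genes the changes of exonic and pNET-seq reads had a Spearman correlation of -0.01. The lack of a shared change was therefore not particular to the genes past 2-fold.

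Among genes with at least 200 exonic reads in either genotype, the 10 largest gains of scaled exonic reads ran from 2.35-fold to 3.47-fold. GALS3, a galactan synthase of the cell wall, had 200 exonic reads in xrn3 and 55 in Col-0, with 33 intronic reads in xrn3 and 36 in Col-0. XTH17, an enzyme that remodels xyloglucan, had 343 exonic reads in xrn3 and 126 in Col-0, and ANNAT1, a calcium-binding annexin, had 1726 in xrn3 and 701 in Col-0. ANNAT1 had 176 intronic reads in xrn3 and 263 in Col-0, so its share was 9.25% in xrn3 and 27.3% in Col-0. MLP328 had 788 exonic reads in xrn3 and 320 in Col-0, the phosphate transporter PHT1;4 had 223 in xrn3 and 90 in Col-0, AT1G62790, a lipid-transfer family gene, had 442 in xrn3 and 164 in Col-0, and AT3G05727, of a pollen coat protein family, had 407 in xrn3 and 162 in Col-0. AT1G06760 had 1527 in xrn3 and 625 in Col-0. In 5 of the 10 genes intronic reads were also more numerous in xrn3 and the share was not called. Among them XTH17 had 40 intronic reads in xrn3 and 19 in Col-0, AT1G06760 had 411 in xrn3 and 279 in Col-0, and AT3G05727 had 4 in xrn3 and 0 in Col-0. AT3G15460, a Brix domain gene of ribosomal RNA processing, had 1058 exonic and 757 intronic reads in xrn3, against 407 and 248 in Col-0. AT2G41440, a MADS-box gene, had 2829 and 460 in xrn3, against 1094 and 209 in Col-0, and its pNET-seq gene body reads were 1942 scaled in xrn3 and 175 in Col-0.

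Among the 10 largest losses, with the same minimum, were loci where exons and introns held nearly equal reads. Unspliced RNA would give such counts. AT2G15042, a leucine-rich repeat gene, had 776 exonic and 833 intronic reads in xrn3, against 2508 and 2712 in Col-0, and its share of 51.8% in xrn3 and 52.0% in Col-0 did not move. The long non-coding RNA AT1G26208 had 1118 and 833 in xrn3, against 3206 and 2347 in Col-0. NRT2.7, a nitrate transporter, had 146 and 123 in xrn3, against 393 and 332 in Col-0. AT2G33510 had 295 and 255 in xrn3, against 694 and 649 in Col-0, AT2G28810, a Dof transcription factor, had 270 and 185 in xrn3, against 634 and 455 in Col-0, and AT2G26215 had 96 and 83 in xrn3, against 230 and 238 in Col-0. UMAMIT45, a transporter of the nodulin family, was not near equal, with 755 exonic and 294 intronic reads in xrn3, against 1785 and 834 in Col-0. Its share was 28.0% in xrn3 and 31.8% in Col-0. RMA3, a RING-type ubiquitin ligase, differed, with 73 exonic and 36 intronic reads in xrn3, against 211 and 32 in Col-0, so its share was higher, at 33.0% in xrn3 and 13.2% in Col-0. AT5G40830 was likewise higher in share, with 112 and 42 in xrn3, against 262 and 48 in Col-0. PDF1.3, a plant defensin, had 72 and 3 in xrn3, against 207 and 0 in Col-0.

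The study drew browser tracks of 4 genes for xrn3, and their shares were taken from the same tables. PPI1 (AT4G27500), a protein that binds the plasma membrane proton pump, had 730 intronic and 5403 exonic reads in xrn3, against 816 and 3848 in Col-0, a log2 change of -0.56. COL4 (AT5G24930), of the CONSTANS-like family, had 775 and 7100 in xrn3, against 1077 and 6827 in Col-0, a change of -0.47. Both passed Fisher's exact test, with adjusted p of 4.6e-15 and 1.8e-12, and neither reached 1.5-fold. AT5G25360 had 25.9% in xrn3 and 27.5% in Col-0, and the RING-type gene AT1G19310 had 37.3% in xrn3 and 38.5% in Col-0. These 2 genes did not pass the test.

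The size of the fall went with the level of a gene in total RNA of Col-0 seedlings treated with the solvent DMSO, a split chosen after seeing the data. Genes with 303 or more exonic reads per intron there had a median change of -0.43, with a share of 14.5% in xrn3 and 19.8% in Col-0, and 94.6% of them were lower. Genes with 1 to 88.3 reads had a median change of -0.23, with 20.6% in xrn3 and 24.8% in Col-0, and 81.0% were lower. The genes in between had -0.29 and -0.33. Scaled exonic reads moved with the level, from a median of -0.06 in the lowest group to 0.13 in the highest, while the median of scaled intronic reads was nearly the same in each, between -0.39 and -0.42. Introns that were almost fully spliced in the DMSO total RNA, with an intronic share under 1%, had a median change of -0.43 on chromatin. Those that kept at least 20% there had -0.09, with 31.0% in xrn3 and 33.9% in Col-0. Polyadenylated RNA had been removed before the chromatin libraries were made, and how much remained in each library is not known here. The part of mature RNA in these changes was not tested.

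**Figure D5:**
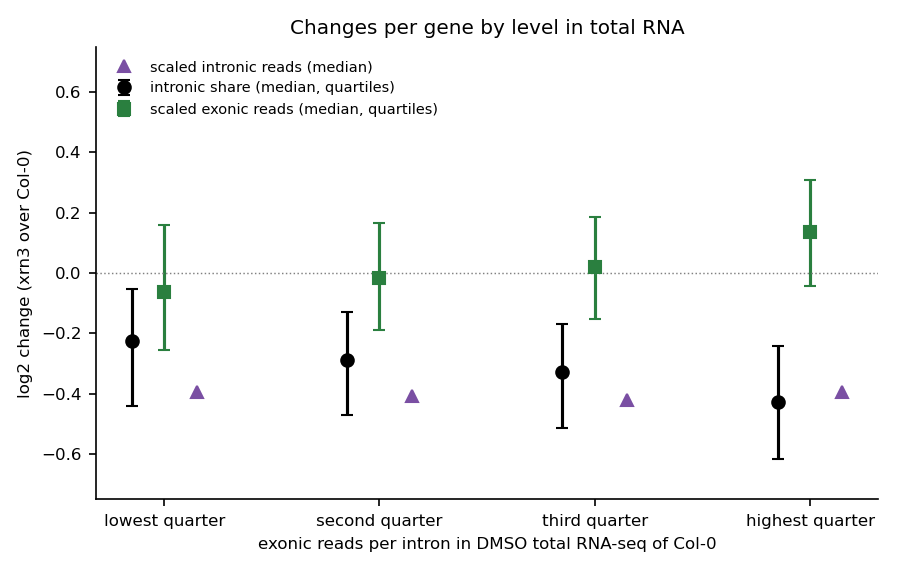
Log2 change (xrn3 over Col-0) of intronic share (circles) and scaled exonic reads (squares), as median and quartiles over genes, and of scaled intronic reads (triangles, median), in 4 equal groups of genes by exonic reads per intron in DMSO total RNA. Exonic reads go up and the share goes down from the lowest to the highest group, while intronic reads stay between -0.39 and -0.42.

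Loci were also grouped by annotation, again a split made after seeing the data. The 101 loci annotated as long non-coding RNA had a median share of 46.5% in xrn3 and 46.6% in Col-0, a median change of -0.01, and 0 of them were called. Such a share is near that of unspliced RNA, and why it did not move was not tested. The 37 loci annotated as other non-coding RNA had 35.9% in xrn3 and 41.0% in Col-0, a median change per locus of -0.04, and 1 was called lower. The 13271 protein-coding genes had 18.4% in xrn3 and 23.1% in Col-0, a median change of -0.30, and 16.9% of them were called lower. Exonic reads of the long non-coding loci were lower in xrn3, with a median log2 change of -0.23.

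XRN3 acts after the poly(A) site, so the genes were also grouped by the distance to their upstream neighbour. Genes that start less than 300 bp after a gene on the same strand were called higher in 1.01% of 2171 cases. The share was 1.03% at gaps from 300 to under 1000 bp, 0.833% at gaps of at least 1000 bp and 0.798% where the upstream gene lies on the other strand. Among 684 genes that overlap a neighbour it was 0.877%. The medians of the change were -0.29, -0.32, -0.31 and -0.31, and -0.29 for the overlapping genes. For the first intron alone, the rates of introns called higher were 2.12%, 2.35%, 1.15% and 1.79%, and 3.25% (18 of 553) in overlapping genes, against 1.85% of all these first introns. No test of the differences between these classes was made.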

How the data were processed

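CB-RNA-seq of xrn3 and Col-0 (2 libraries each) was analysed from 1 pooled table per genotype. The authors removed polyadenylated RNA and ribosomal RNA from the chromatin-bound RNA before making the libraries. Per the authors, trimming (Trimmomatic 0.39) was followed by mapping to TAIR10 (HISAT2 2.2.0), and only unique reads and expressed genes (TPM from 1 upward) entered. The deposited tables hold, per intron, whole-number counts of exonic and intronic reads at each splice site, which the authors did not normalise, and their ratio, which was recomputed as a check and otherwise not used. The libraries carried no molecular identifiers, so reads are not independent molecules. DMSO total RNA-seq (3 libraries, pooled) and the deposited pNET-seq gene body counts, which the authors obtained after removing PCR duplicates, served as background.

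Groups were taken from the sample labels. The log2 change of the share adds 0.5 to intronic counts and 1 to totals. A call needs an adjusted p under 0.05 (Fisher's exact test, two-sided, Benjamini-Hochberg) and 1.5-fold, and for exonic reads, scaled by the median ratio, 2-fold. Python 3.11.15 with numpy 2.4.6, pandas 2.3.3, scipy 1.17.1 and matplotlib 3.10.9 was used, and the test was tested on simulated data. Symbols, neighbours and sequences come from RefSeq's TAIR10 annotation, and gene ends from the deposited pNET-seq tables. Of repeated introns, 35 were dropped. A Col-0 table whose assay is not named (4 columns), the DMSO pNET-seq table and the herboxidiene tables were not used, nor were the peak reads, pause index and p-values in the deposited pNET-seq tables.

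Named genes are XRN3, genes drawn by the study for xrn3, the 10 largest rises and falls of share (called, at least 200 exonic reads in both tables) and of exonic reads (at least 200 in one), the 5 largest rises and falls of introns (at least 50 exonic reads per site), and 9 lists of 86 genes. Members and lists were chosen with earlier results of these data known.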

Additional observations from a re-analysis of the deposited data

How the results depend on the processing

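No paired analysis was possible because each genotype has 1 pooled table, and for the same reason no replicate could be left out. The median log2 change per intron (-0.29, with 74.4% of introns lower) was -0.28 (73.1%) with at least 10 exonic reads, -0.31 (77.9%) with at least 50, -0.28 (71.3%) from the 5′ site alone and -0.27 (71.7%) from the 3′ site alone, where the minimum of reads was asked of that site only, and -0.26 with 5 added to intronic counts. With introns that are at 0 in 1 genotype set to a floor of 3 reads it was -0.29. The largest difference between medians of position classes (0.030 on the log2 scale) was 0.063 with at least 50 exonic reads and 0.053 at the 5′ site, and that between length classes (0.055) was 0.093 at the 5′ site. The 1518 introns called higher and 14090 lower became 388 and 5741 at the 5′ site, 338 and 5919 at the 3′ site, 4884 and 21753 by 1.5-fold with no test, 569 and 5085 with an adjusted p under 0.01 and 2-fold, and 3090 and 3904 relative to the median change, with 961 called higher at 50 exonic reads. The 116 genes called higher and 2263 lower became 184 and 7246 with no fold required, 43 and 421 with an adjusted p under 0.01 and 2-fold, and 300 and 522 relative to the median change. Without the leading intron, which can be left out only in genes with 2 or more, and with no p asked, 24 of 59 were still 1.5-fold higher and 1085 of 1786 lower. Genes called higher were 63 at the 5′ site, 51 at the 3′ site and 228 by 1.5-fold with no test. Genes past 2-fold in exonic reads (42 higher, 56 lower) became 89 and 93 at 10 exonic reads, 15 and 27 at 50, 69 and 93 at the 5′ site, 199 and 145 with no minimum, and 481 and 523 at 1.5-fold, and 94 were lower at the 3′ site. Of genes within 300 bp of an upstream gene, 1.01% were called higher, against 0.553% at the 5′ site, 0.461% at the 3′ site and 2.12% for the first intron. The share of AT5G13400 turned to -0.40 with at least 10 exonic reads and to -0.50 at the 3′ site. The causes of these moves were not tested. A single site holds fewer counts, and a read that reaches both sites counts only once there. The thresholds themselves were wider or narrower by design. Leaving out overlapping introns and scaling by the total of exonic reads moved none of the counts by over 1.5 times. Depth limits what single introns can show, since the median intron had 40 intronic reads in xrn3 and 49 in Col-0.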
